A study of Homo sapiens with 6 samples.

Results

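The BCL2 family genes described here are BMF and 9 relatives, taken from the deposited count table by their symbols: the BH3-only genes BMF, BBC3, PMAIP1, BCL2L11 and BID, the effectors BAX and BAK1, and the anti-apoptotic genes BCL2, BCL2L1 and MCL1. All 10 were found among the 30651 genes listed, and all 10 had enough counts to be among the 15423 genes tested. BMF was put at the head of the group because its fall between the groups compared here was known beforehand. The other members were put beside it with the same results known. Their differences between the groups are therefore given as a description, with standard errors (SE) or 95% intervals but without p-values.

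The cells were PC-3, an established human line grown from prostate cancer that had spread to bone, and their total RNA was sequenced as stranded paired-end libraries. A control group (Ctrl, 3 libraries) was compared with a group named after MTA1 (3 libraries), whose product belongs to NuRD, a complex that remodels nucleosomes and removes acetyl groups from histones. In the tables the MTA1 columns start with sh, as short hairpin RNAs are usually written, and those of Ctrl start with NC. Both groups were grown in the same serum-containing medium, and for both the labels mention a lentivirus, a transfection and clones screened for stable expression, without giving the number of hairpins or clones. Nothing in the labels says that the libraries came from separate cultures, so p-values are set against library-to-library spread that could be technical. Fewer cells with a transcript and less of it per cell cannot be told apart in such RNA.

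BCL2 family proteins govern the permeability of the outer mitochondrial membrane. BAX and BAK1 form the pores that release cytochrome c, BCL2, BCL2L1 (BCL-XL) and MCL1 hold them in check, and BH3-only proteins, which share with the rest of the family little more than the short BH3 helix, bind the guardians or activate the effectors. BMF and BCL2L11 (BIM) are further known for being held on motor complexes through dynein light chains, and BMF is linked to the death of epithelial cells that lose their attachment. Much of the control of these proteins lies in splicing, phosphorylation and turnover, which were not analysed here.

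The windows before the transcript starts of BMF and BCL2L11 are shown because these were the BH3-only genes among the 10 members with lower counts in the MTA1 group. The sequences are those of RefSeq on GRCh38.p14, which held 9 of the 10 members (not MCL1). Each runs over the 250 bases before a start, 5′ to 3′ on the strand of the gene, and capitals mark 4 motifs on either strand: the GC box GGGCGG, the CCAAT box CCAAT, the E-box CANNTG and the forkhead core TGTTTAC. The matches shown do not overlap each other.
BMF, first start, chr15:40108880-40109129, minus strand: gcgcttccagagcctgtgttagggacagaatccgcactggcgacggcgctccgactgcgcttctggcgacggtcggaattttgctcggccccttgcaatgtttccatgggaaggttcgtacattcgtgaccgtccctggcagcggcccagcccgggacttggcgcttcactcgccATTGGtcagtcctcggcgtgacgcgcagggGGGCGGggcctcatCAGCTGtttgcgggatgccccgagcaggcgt
BMF, second start, chr15:40106967-40107216, minus strand: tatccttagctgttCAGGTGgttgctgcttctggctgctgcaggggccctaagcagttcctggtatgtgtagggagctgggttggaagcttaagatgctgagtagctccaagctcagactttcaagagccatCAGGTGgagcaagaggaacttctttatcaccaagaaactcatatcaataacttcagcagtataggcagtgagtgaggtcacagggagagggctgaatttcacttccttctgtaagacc
BCL2L11, chr2:111120664-111120913, plus strand: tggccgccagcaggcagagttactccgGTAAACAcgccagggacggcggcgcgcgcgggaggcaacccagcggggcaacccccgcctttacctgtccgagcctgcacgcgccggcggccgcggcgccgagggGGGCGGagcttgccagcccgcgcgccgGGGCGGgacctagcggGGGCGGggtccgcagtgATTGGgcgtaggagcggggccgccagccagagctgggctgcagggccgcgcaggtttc

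The windows differed in composition. The first BMF window held 65.2% G and C and the BCL2L11 window 76.8%, against a median of 58% over 35116 such windows, whereas the second BMF window held 48.8%. The first BMF window had 1 GC box, 1 CCAAT box (on the opposite strand) and 1 E-box, and the second had 2 E-boxes and none of the other motifs. The BCL2L11 window had 3 GC boxes, 1 CCAAT box and 1 forkhead core. Its CCAAT box and forkhead core were both read on the opposite strand, the forkhead core 223 to 217 bases before the start. Of all windows, 42.6% held a GC box, 32.0% a CCAAT box, 61.8% an E-box and 2.98% the forkhead core. Such matches describe the sequence and do not show that a factor binds there, and which start was used in these cells was not analysed here.

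Library totals ran from 29909172 to 33849262 counts. MTA1, the targeted gene, stood at 38.3, 40.6 and 41.1 CPM (counts scaled to a common library total with TMM) in Ctrl and at 17.3, 18.0 and 16.7 CPM in the MTA1 group, each in the order of the replicate numbers, as below. Its groups did not overlap, with log2 fold change -1.21 ± 0.054 (SE) and edgeR adjusted p = 4.3e-13. The 5 markers of the line (the epithelial genes KRT8, KRT18, KRT19 and EPCAM, and the mesenchymal gene VIM) were all present, with a summed level of 3888 to 4116 CPM in Ctrl and 3746 to 4046 CPM in the MTA1 group. The sum held genes that went apart without overlap, with KRT8 lower (1886 ± 43.9 and 1541 ± 56.9 CPM) and VIM (779 ± 30.8 and 1032 ± 32.8 CPM) and EPCAM (17.4 ± 2.00 and 25.4 ± 1.93 CPM) higher in the MTA1 group. KLK3, which encodes prostate-specific antigen and is known to be lost in PC-3 cells, had at most 1 count in a library. Fibroblast markers summed to 49.2 to 55.1 CPM in Ctrl and 36.2 to 38.0 CPM in the MTA1 group, with none of the 6 at 0. Most of the lower sum lay in COL1A1, at 31.6 ± 1.46 CPM in Ctrl and 16.4 ± 0.470 CPM in the MTA1 group. PDGFRB was lower too, without overlap, at 3.60 ± 0.192 and 2.55 ± 0.260 CPM. COL1A2 had a lower mean with overlap, at 1.32 ± 0.464 and 0.871 ± 0.185 CPM. LUM was at 12.6 ± 0.851 and 13.9 ± 1.05 CPM, DCN at 0.987 ± 0.126 and 1.36 ± 0.331 CPM, and COL3A1 at 2.46 ± 0.687 and 2.25 ± 0.329 CPM. Leukocyte and endothelial markers, of which 5 of 6 were listed, summed to 12.9 to 13.7 CPM and 11.6 to 11.8 CPM, most of it PECAM1, and the leukocyte marker PTPRC had at most 3 counts. The part of these transcripts in the results below was not tested.

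BMF (ENSG00000104081.14, chromosome 15 in the files) had the largest difference of the family. Its counts were 273 in Ctrl replicate 1, 300 in replicate 2 and 314 in replicate 3, and 28, 27 and 29 in the MTA1 replicates. In CPM these were 8.84, 9.16 and 9.54 against 0.919, 0.852 and 0.934. Every MTA1 library was far below every Ctrl library, and within each group the libraries lay close together. The mean was 9.18 ± 0.355 CPM (SD, n = 3) in Ctrl and 0.902 ± 0.0440 CPM in the MTA1 group, so that 9.82% of the control level was left. The log2 fold change was -3.34 ± 0.126 (SE), a 10.2-fold lower level, and was the 7th lowest of the 15423 genes tested. The coefficient of variation between libraries was 3.87% in Ctrl and 4.88% in the MTA1 group, below the 5.82% and 18.9% that counting alone would give at these depths. The MTA1 libraries thus agree more closely than their few counts can resolve, and the SE of the fit is the better guide to the precision. In the deposited FPKM values, which scale counts for gene length, BMF stood at 1.39, 1.46 and 1.51 against 0.15, 0.14 and 0.16. On a scale of log2(FPKM + 1) the difference was -1.09, since the added 1 exceeds the level in the MTA1 group, and on log2(FPKM + 0.1) it was -2.64. The antisense gene BMF-AS1 overlaps BMF on the opposite strand in GENCODE 29, and the strand setting of the counting is not given in the sources used here.

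**Figure D1:**
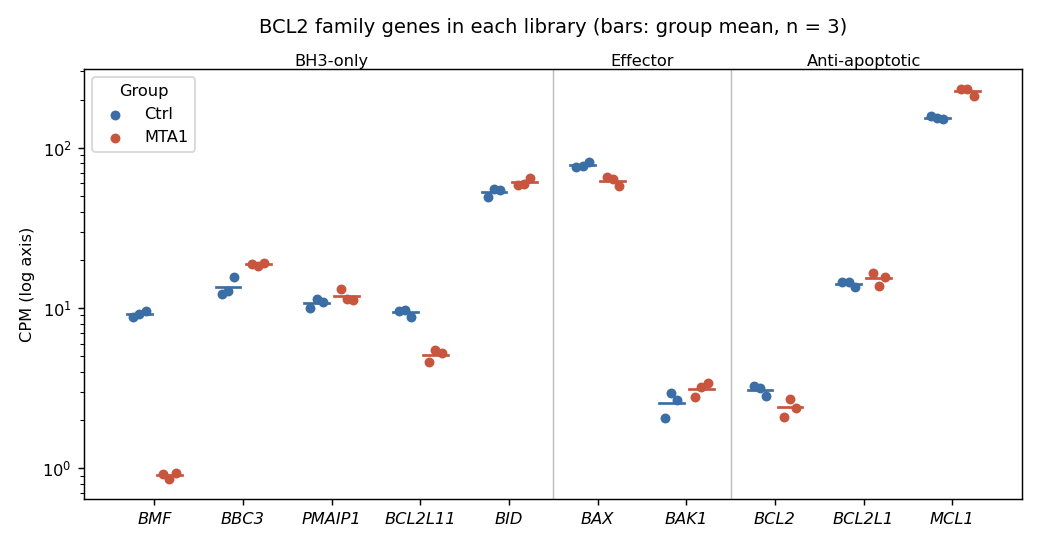
Level of each BCL2 family gene in each of the 6 libraries, in CPM on a log axis, with genes on the horizontal axis by class. Points are libraries and bars are group means (n = 3). BMF lies between 8.84 and 9.54 CPM in Ctrl and between 0.852 and 0.934 CPM in the MTA1 group, a wider gap than that of any other member.

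BCL2L11 encodes BIM, the BH3-only protein that can bind every anti-apoptotic member and also activate BAX and BAK1. It stood at 9.64, 9.65 and 8.85 CPM in Ctrl and 4.63, 5.49 and 5.25 CPM in the MTA1 group. The groups did not overlap, and the highest MTA1 library was well under the lowest Ctrl library. The mean fell from 9.38 ± 0.463 to 5.12 ± 0.445 CPM (log2 fold change -0.87 ± 0.090), which left 54.6% of the control level. The long non-coding RNA MIR4435-2HG, annotated over BCL2L11 on the opposite strand, stood at 31.6 ± 1.76 CPM in Ctrl and 30.7 ± 0.945 CPM in the MTA1 group (log2 fold change -0.04 ± 0.054, edgeR adjusted p = 0.54).

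BBC3 encodes PUMA, a BH3-only protein that binds every anti-apoptotic member. Its level was 12.3, 12.8 and 15.5 CPM in Ctrl and 18.7, 18.4 and 19.2 CPM in the MTA1 group. All 3 MTA1 libraries were above all Ctrl libraries, and Ctrl replicate 3 stood above the other two. The mean rose from 13.5 ± 1.75 to 18.8 ± 0.378 CPM (log2 fold change 0.47 ± 0.075).

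BID links death receptors to mitochondria after its cleavage by caspase-8. It stood at 49.1, 55.7 and 54.3 CPM in Ctrl and 58.3, 59.3 and 65.1 CPM in the MTA1 group, without overlap but with a gap smaller than the spread within either group. The mean rose slightly, from 53.03 ± 3.45 to 60.9 ± 3.67 CPM (log2 fold change 0.20 ± 0.054). PMAIP1 encodes NOXA, which binds MCL1 and promotes its breakdown. Its levels were 9.94, 11.3 and 10.97 CPM in Ctrl and 13.2, 11.4 and 11.2 CPM in the MTA1 group. These groups overlapped, with MTA1 replicate 1 above the rest. PMAIP1 did not pass the test, and its log2 fold change of 0.14 had a 95% interval from -0.02 to 0.31, with 0.07 left without MTA1 replicate 1 and 0.08 without Ctrl replicate 1. The 5 BH3-only members were thus split, with BMF and BCL2L11 lower, BBC3 and BID higher and PMAIP1 between.

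BAX, the effector that moves from the cytosol to mitochondria in dying cells, was at 76.2, 76.6 and 81.7 CPM in Ctrl and 65.6, 63.6 and 57.6 CPM in the MTA1 group. The groups did not overlap, and the mean fell from 78.2 ± 3.10 to 62.2 ± 4.15 CPM (log2 fold change -0.33 ± 0.051). BAK1, the effector that sits in the mitochondrial membrane of healthy cells, was at 2.07, 2.93 and 2.67 CPM in Ctrl and 2.79, 3.22 and 3.42 CPM in the MTA1 group. These groups overlapped, since Ctrl replicate 2 was above MTA1 replicate 1. BAK1 had 64 to 106 counts in a library, and its log2 fold change of 0.29 (95% interval -0.02 to 0.60) did not pass. Without Ctrl replicate 1, the lowest library, it was 0.16.

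MCL1, a short-lived guardian that many solid tumour lines depend on, had the highest level per length of the anti-apoptotic genes. It stood at 157, 153 and 151 CPM in Ctrl and 231, 234 and 212 CPM in the MTA1 group. Every MTA1 library was far above every Ctrl library. The mean rose from 154 ± 3.03 to 226 ± 11.8 CPM (log2 fold change 0.55 ± 0.043), a 1.47-fold higher level. BCL2L1, whose long isoform is BCL-XL, was at 14.6, 14.5 and 13.5 CPM in Ctrl and 16.5, 13.8 and 15.7 CPM in the MTA1 group. The groups overlapped, because MTA1 replicate 2 fell within the Ctrl range, and the log2 fold change of 0.11 (95% interval -0.04 to 0.26) did not pass. Without that library BCL2L1 passed as higher at 0.19, whereas without MTA1 replicate 1 the value was 0.06 and without Ctrl replicate 3 it was 0.07.

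BCL2, the founding member of the family, was the least certain call. Its levels were 3.27, 3.15 and 2.83 CPM in Ctrl and 2.10, 2.71 and 2.38 CPM in the MTA1 group. The groups did not overlap, but MTA1 replicate 2 came close to Ctrl replicate 3, and BCL2 had 64 to 103 counts in a library. Its mean fell from 3.08 ± 0.228 to 2.40 ± 0.307 CPM (log2 fold change -0.36 ± 0.14). The call ended when any 1 of Ctrl replicate 1, Ctrl replicate 2, MTA1 replicate 1 or MTA1 replicate 3 was left out (log2 fold change -0.32, -0.35, -0.27 and -0.35), and with DESeq2 (-0.36).

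Of the 10 members, 7 passed edgeR's test at an adjusted p under 0.05, 3 higher and 4 lower, where 58.1% of all tested genes passed, 29.5% higher and 28.6% lower. The libraries of the groups did not overlap in 7 members, against 62.7% of all tested genes. The members were chosen on this contrast, and nothing is read from these counts. Their log2 fold changes ran from -3.34 to 0.55 with a median of 0.13, beside a median of 0.002 over all tested genes. When libraries were scaled by their size alone, 6 members passed as higher and 3 as lower, with PMAIP1 (0.21), BAK1 (0.36) and BCL2L1 (0.18) then higher and BCL2 (-0.29) no longer called. After BMF, BCL2L11 was the member farthest from 0, and 9.21% of the tested genes had a larger absolute log2 fold change than BCL2L11, against 0.0778% for BMF and 23.04% for MCL1.

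**Figure D2:**
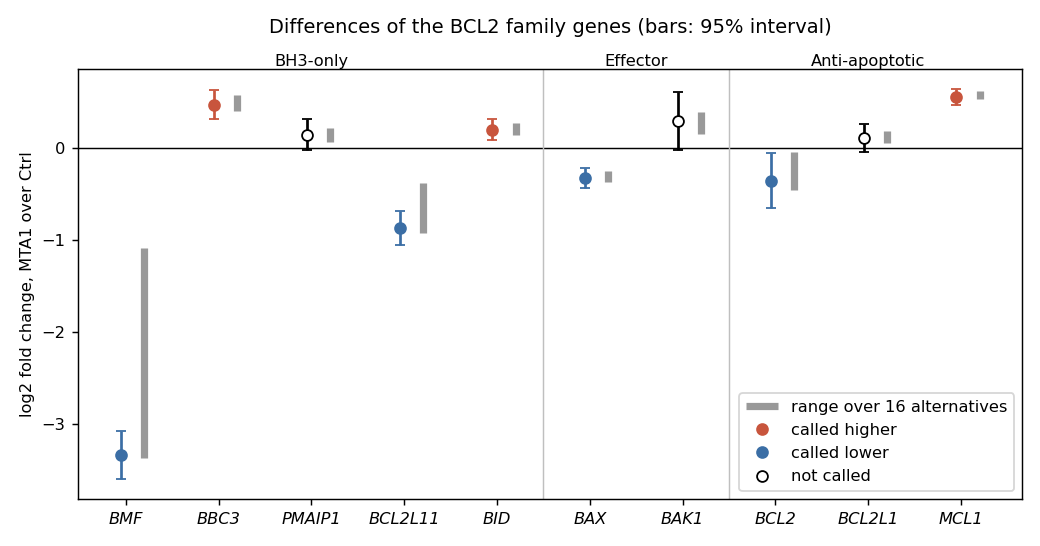
Log2 fold change of each BCL2 family gene, MTA1 group over Ctrl, with genes by class on the horizontal axis. Points are the edgeR estimates with 95% intervals, filled where the test was passed, and grey bars give the range over 16 alternative settings. The long grey bars of BMF and BCL2L11 reach towards 0 because of the FPKM scales with an added constant.

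Levels can be compared between genes per length, in FPKM. In Ctrl the order from high to low was BAX (26.1 ± 1.002 FPKM, SD, n = 3), MCL1 (21.3 ± 0.361), BID (10.4 ± 0.738), PMAIP1 (4.24 ± 0.312), BBC3 (3.67 ± 0.471), BCL2L1 (2.92 ± 0.127), BMF (1.45 ± 0.0603), BCL2L11 (1.21 ± 0.0643), BAK1 (0.997 ± 0.179) and BCL2 (0.210 ± 0.0173). The libraries of PMAIP1 and BBC3 overlapped, as did those of BCL2L11 and BAK1, while every other pair of neighbours was apart. In the MTA1 group MCL1 (32.8 ± 1.52 FPKM) came first and BAX (21.8 ± 1.32) next, BBC3 (5.33 ± 0.137) and PMAIP1 (4.92 ± 0.433) overlapped, and BAK1 (1.29 ± 0.137) stood above BCL2L11 (0.697 ± 0.0586). BMF (0.150 ± 0.0100 FPKM) dropped from the 7th place to the 10th, where its libraries overlapped those of BCL2 (0.170 ± 0.0200). These FPKM values are rounded to 2 decimals, so the lowest levels have few distinct steps.

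**Figure D3:**
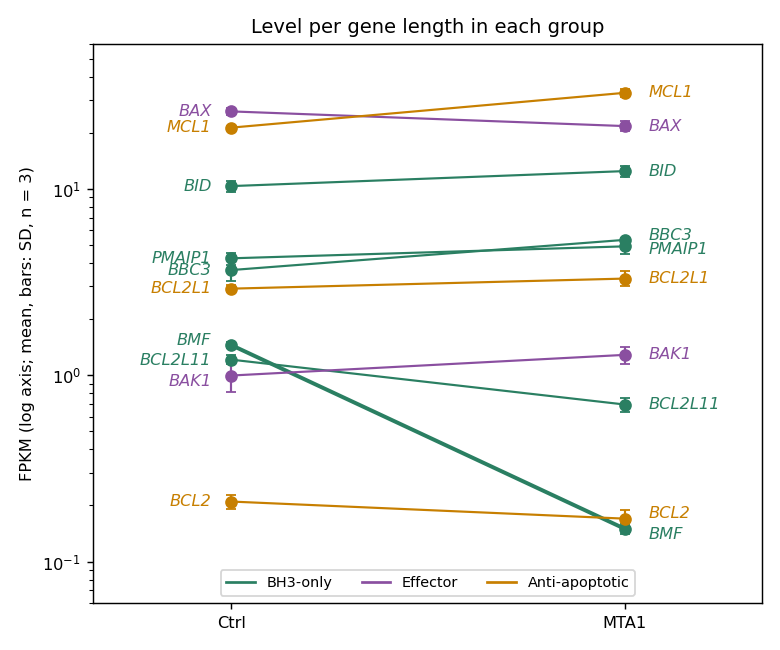
Level per gene length of the BCL2 family genes in each group, in FPKM on a log axis. Points are means with SD (n = 3), lines join the same gene in Ctrl and MTA1, and colours give the class. MCL1 and BAX exchange the first and second place, and BMF crosses from 1.45 to 0.150 FPKM, the lowest of the 10.

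Levels per length were also summed within each class of members. The FPKM values ran slightly higher in the MTA1 group. On log2(FPKM + 0.1) the median difference of the tested genes was 0.059, beside 0.002 in the edgeR fit. Sums compared between the groups carry this offset. The 5 BH3-only members summed to 19.4 to 21.7 FPKM in Ctrl and 22.9 to 24.4 FPKM in the MTA1 group. BMF was 6.95 ± 0.226% of this sum in Ctrl and 0.636 ± 0.0217% in the MTA1 group, BCL2L11 5.82 ± 0.579% and 2.96 ± 0.271%, and BID 49.5 ± 0.973% and 52.9 ± 2.04% (SD, n = 3). The sum depends on which BH3-only genes enter it. With BAD, BIK and HRK added, a choice made after seeing the data, it was 41.8 to 47.8 FPKM in Ctrl and 42.8 to 47.7 FPKM in the MTA1 group, which overlap, and BMF was 3.19 ± 0.121% and 0.336 ± 0.00935% of it. BAD, which binds BCL2 and BCL-XL, was 49.9 ± 0.160% and 41.7 ± 1.55% of that wider sum. The effectors summed to 26.1 to 28.2 FPKM in Ctrl and 21.7 to 23.97 FPKM in the MTA1 group, nearly all of it BAX (96.3 ± 0.602% and 94.4 ± 0.873%). The anti-apoptotic genes summed to 23.9 to 24.9 FPKM and 34.6 to 37.2 FPKM, of which MCL1 held 87.2 ± 0.367% and 90.4 ± 0.951%. These are message levels per length and say nothing of protein.

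The genes whose profile over the 6 libraries was most like that of BMF were sought among genes with a mean of 2 CPM or more, by the root mean square difference of log2 CPM after centring each gene on its mean. The nearest were SLC12A3, a sodium-chloride cotransporter (0.154 on the log2 scale), TRIM31, a ubiquitin ligase (0.154), the mucin MUC16 (0.260), the intestinal alkaline phosphatase ALPI (0.331), which has close paralogs, and IGFN1 (0.340). With 6 libraries in 2 groups, likeness of this kind mostly reflects a fall of similar size. SLC12A3 went from 11.0 ± 0.448 to 0.922 ± 0.0490 CPM and TRIM31 from 4.03 ± 0.324 to 0.333 ± 0.0199 CPM. These genes lie on chromosomes other than that of BMF in the files. The coding genes on either side of BMF in GENCODE 29 did not share its fall. SRP14, a subunit of the signal recognition particle, fell by 0.24 ± 0.040 on the log2 scale (edgeR adjusted p = 3.3e-05), and BUB1B, a spindle checkpoint kinase, rose from 15.7 ± 1.30 to 18.8 ± 0.374 CPM (0.26 ± 0.065, adjusted p = 0.0022).

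Further genes of the pathway were taken from 5 lists of 60 genes, none of them a member. The lists too were chosen with earlier results of these data known. Their counts and adjusted p-values, here and in the paragraphs below, are therefore a description and not an independent test. Of these, 54 were tested, 14 rose and 22 fell, or 66.7% called beside the 58.1% of all tested genes, with a median log2 fold change of -0.08. The other BCL2-related genes came first. Of 14, 9 were tested, with HRK, BCL2A1, BCL2L10, BCL2L14 and BCL2L15 at 13 counts or fewer in every library. Of the tested genes, 2 rose and 3 fell (median -0.09). BNIP3, a mitophagy receptor that hypoxia induces, rose from 46.2 ± 0.900 to 71.8 ± 1.27 CPM (0.64 ± 0.044, edgeR adjusted p = 2.1e-10). Its relative BNIP3L rose less (0.16 ± 0.057, adjusted p = 0.021), with overlap between the groups, a call lost on leaving out Ctrl replicate 1 (0.077), Ctrl replicate 3 (0.11) or MTA1 replicate 1 (0.080). The BH3-only gene BAD fell from 45.1 ± 3.08 to 35.2 ± 3.09 CPM (-0.36 ± 0.062, adjusted p = 5.6e-05), BCL2L13, a mitochondrial relative, from 24.8 ± 0.206 to 19.4 ± 0.996 CPM (-0.35 ± 0.056, adjusted p = 1.7e-05), and the autophagy protein gene BECN1 by 0.20 ± 0.047 on the log2 scale (adjusted p = 0.0011). BIK (0.28), BOK (-0.13), BCL2L12 (-0.09) and BCL2L2 (0.09) did not pass, though leaving out MTA1 replicate 2 made BCL2L12 pass as lower (-0.19, edgeR adjusted p = 0.043). BCL2L2, which encodes BCL-W, shares sequence with a listed read-through gene, BCL2L2-PABPN1, so its count is uncertain.

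In the apoptosome and caspase list 8 of 14 genes fell and 3 rose, and the median was -0.25 on the log2 scale. That is 78.6% called, beside 58.1% of all tested genes (29.5% higher and 28.6% lower). CASP9, the caspase that the apoptosome activates, stood at 14.4, 16.2 and 17.1 CPM in Ctrl and 7.32, 8.17 and 8.60 CPM in the MTA1 group. Every MTA1 library was below every Ctrl library (-0.99 ± 0.081, edgeR adjusted p = 2.9e-09). CYCS, the cytochrome c that BAX and BAK1 release, fell from 391 ± 13.3 to 301 ± 4.45 CPM (-0.38 ± 0.040, adjusted p = 9.4e-08), and APAF1, the scaffold of the apoptosome, from 12.9 ± 0.840 to 10.2 ± 0.840 CPM (-0.34 ± 0.078, adjusted p = 0.00089). The mitochondrial nuclease gene ENDOG fell by 0.62 ± 0.051 on the log2 scale (adjusted p = 2.6e-09). CASP2 (-0.32, adjusted p = 0.0037) and CASP6 (-0.30, 0.015) fell too. The call of CASP6 ended without MTA1 replicate 3 (0.058). CASP8, which death receptors activate and which cleaves BID, went the other way, from 3.46, 3.69 and 3.59 CPM in Ctrl to 5.64, 5.77 and 6.25 CPM (0.72 ± 0.10, adjusted p = 6.9e-06). PARP1, a caspase substrate, rose too (0.28 ± 0.043, adjusted p = 1.8e-05). DFFA, the inhibitor of a caspase-activated nuclease, rose by 0.12 (adjusted p = 0.043), with overlap between the groups, a call that ended without Ctrl replicate 1 (0.29), Ctrl replicate 3 (0.062), MTA1 replicate 1 (0.060) or MTA1 replicate 3 (0.16). CASP10 (-0.03), DFFB (-0.15) and AIFM1 (0.07) did not pass, though leaving out Ctrl replicate 2 made DFFB pass as lower (-0.23, adjusted p = 0.039).

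Of 8 inhibitors of apoptosis and their antagonists, 4 fell and 1 rose (median -0.19), or 62.5% called beside 58.1% of all tested genes. XIAP, a direct inhibitor of caspases, fell from 10.5 ± 0.840 to 8.19 ± 0.462 CPM (-0.35 ± 0.082, edgeR adjusted p = 0.0011), and BIRC2, which encodes the ubiquitin ligase cIAP1, from 15.4 ± 1.09 to 10.98 ± 0.819 CPM (-0.49 ± 0.074, adjusted p = 1.1e-05). HTRA2, a mitochondrial protease that antagonizes XIAP, fell as well (-0.31 ± 0.060, adjusted p = 0.00016), as did BIRC5 (-0.38). BIRC6, a very large ubiquitin ligase of the family, rose from 8.17 ± 0.425 to 10.7 ± 0.355 CPM (0.39 ± 0.076, adjusted p = 0.00019). BIRC3 (-0.07), BIRC7 (0.17) and DIABLO (0.48, at 0.712 to 1.29 CPM) did not pass, and without MTA1 replicate 2 both BIRC7 (adjusted p = 0.045) and DIABLO (0.046) passed as higher. Both XIAP and CASP9, a caspase that XIAP restrains, were thus lower in these libraries.

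Among 12 partners and turnover factors, 4 rose and 3 fell (median 0.01), or 58.3% called beside 58.1% of all tested genes. DYNLL2, the dynein light chain that binds BMF, fell from 140 ± 7.19 to 109 ± 3.62 CPM (-0.36 ± 0.045, edgeR adjusted p = 8.4e-07). DYNLL1, the light chain that binds BIM, stood at 301, 302 and 324 CPM in Ctrl and 309, 284 and 217 CPM in the MTA1 group, so that MTA1 replicate 3 stood far below the other libraries, replicate 2 somewhat below the Ctrl range and replicate 1 within it. DYNLL1 passed as lower (-0.19, adjusted p = 0.041), and the call ended without MTA1 replicate 3 (-0.06, 0.27), Ctrl replicate 2 (0.063) or Ctrl replicate 3 (0.17). HUWE1, a ubiquitin ligase for MCL1, rose from 86.1 ± 5.67 to 121 ± 0.983 CPM (0.49 ± 0.046, adjusted p = 2.2e-08), as did, to a smaller degree, the deubiquitinase USP9X, which stabilizes MCL1 (0.14, adjusted p = 0.012, and 0.056 without Ctrl replicate 1). The ligase adaptor BTRC rose by 0.33 (adjusted p = 0.012), a call that ended without Ctrl replicate 3 (0.063) or MTA1 replicate 2 (0.061). Another adaptor for MCL1, FBXW7 (0.21, adjusted p = 0.071), did not pass, and it passed as higher without Ctrl replicate 1 (0.046), MTA1 replicate 1 (0.041) or MTA1 replicate 3 (0.020) and with the replicate number as a block (0.048). Of the channel genes of the outer membrane, VDAC1 rose (0.30 ± 0.043, adjusted p = 4.7e-06), VDAC2, whose product holds BAK1, fell (-0.16, adjusted p = 0.0084, and 0.060 without MTA1 replicate 1), and VDAC3 (-0.02) did not pass. The groups overlapped in VDAC2, with MTA1 replicate 3 (397 CPM) above Ctrl replicate 1 (395 CPM). MARCHF5 (0.05), MAPK8 (-0.05) and MYO5A (-0.11) did not pass either.

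The transcription factors known to act on family genes were split, with 4 of 11 tested higher and 4 lower (median 0.06). That is 72.7% called, beside 58.1% of all tested genes. TP63 had at most 9 counts in a library and was not tested. FOXO factors are known activators of BCL2L11 and BMF. FOXO4 stood at 72.2, 61.4 and 70.6 CPM in Ctrl and 28.9, 26.9 and 29.2 CPM in the MTA1 group, a gap several times the SD within either group (-1.26 ± 0.060, edgeR adjusted p = 7.9e-13). FOXO3 rose from 3.99 ± 0.0705 to 5.22 ± 0.505 CPM (0.39 ± 0.11, adjusted p = 0.0047), and FOXO1, at 17 to 33 counts in a library, did not pass (-0.53 ± 0.26, adjusted p = 0.085). STAT3, an activator of MCL1, rose (0.34 ± 0.052, adjusted p = 1.1e-05), and MYC rose by 0.23 ± 0.038 (adjusted p = 2.6e-05). TP73, a factor able to activate BBC3, was low and fell (-1.10 ± 0.37, adjusted p = 0.016), a call that ended without Ctrl replicate 2 (0.14) or MTA1 replicate 1 (0.082). DDIT3 (1.23) rose, while E2F1 (-0.77) and ATF4 (-0.19) fell and RELA (0.06) did not pass.

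**Figure D4:**
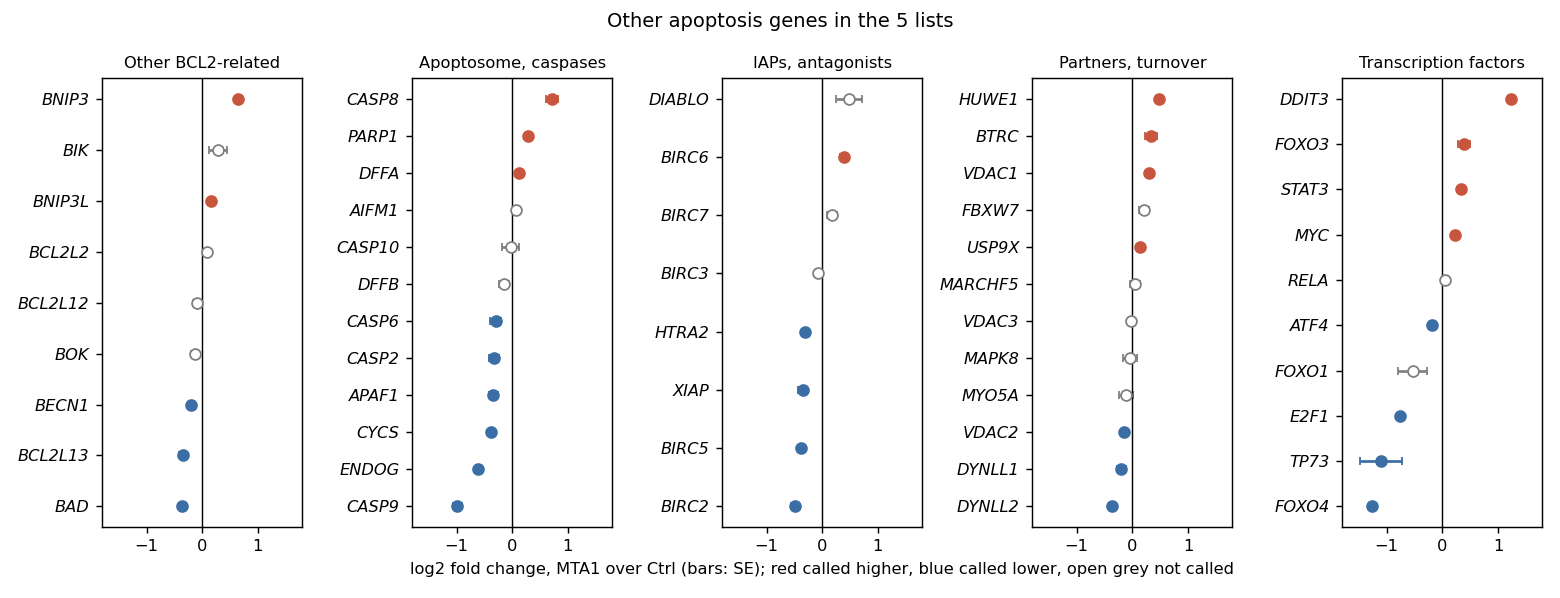
Log2 fold change, MTA1 group over Ctrl, of 51 tested genes in 5 lists of other apoptosis genes, 1 panel a list, with genes on the vertical axis in order of the change. Points are edgeR estimates with SE, red where called higher, blue where called lower and open where not called. In the apoptosome and caspase panel most genes lie below 0, CASP9 the lowest at -0.99, and CASP8 is the highest at 0.72.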

How the data were processed

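The deposited counts are raw whole numbers for 30651 genes, per the file headers, and the authors also gave FPKM values (scaled for gene length and depth, rounded to 2 decimals) for 29969 of them. Not given in the sources used here are the aligner, the counter, its strand setting, the build and the annotation. DESeq2 is listed in the submitters' processing notes, with no role. The NC columns were matched to the Ctrl samples by elimination.

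Counts were tested in R 4.3.3 with edgeR 4.0.16: filterByExpr, TMM, and a quasi-likelihood F test on group without covariates, Benjamini-Hochberg over 15423 genes, threshold 0.05. It was checked on simulated counts. CPM values use TMM-scaled totals. Alternatives used DESeq2 1.42.0 and limma 3.58.1, and the FPKM scales were tested over the genes that edgeR kept. Between replicates of a group the mean squared difference was 3.23 to 9.04 times the counting variance. Between libraries of different groups it was 88.2 to 96.2 times. These ratios used totals without TMM and left out tested genes with very few counts in the pair. The biological coefficient of variation was 4.45%. Depths ran from 29909172 to 33849262 counts.

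Members and lists were chosen with earlier results of these data known. Named genes were the members, MTA1, the genes of the 5 lists, the 5 nearest in profile to BMF (symbols not clone-based) and its coding neighbours. Some genes of the lists are not reported here by name, though they are in the counts. Marker lists covered PC-3, fibroblasts, leukocytes and endothelium.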

Additional observations from a re-analysis of the deposited data

How the results depend on the processing

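The direction of each of the 10 members and of MTA1 was the same under all 16 alternatives. The calls of BMF, BCL2L11, BAX, BBC3, BID and MCL1 held under each of them. With scaling by library size alone 6 members were called higher in place of 3. The call of BCL2 ended in that setting (log2 fold change -0.29), with DESeq2 and on both FPKM scales (-0.20 and -0.05), and the added constant brought BCL2L11 to -0.38 with log2(FPKM + 1). With each library left out in turn, 3 to 4 members were called higher and 3 to 4 lower, over all genes 4092 to 4354 were higher and 4017 to 4232 lower, and in the 5 lists 11 to 15 were higher and 19 to 22 lower. Of the 36 called list genes, 26 kept the call under every alternative. Besides the calls given in the report, CASP2 ended on both FPKM scales (adjusted p = 0.060 and 0.051), and CASP6, DYNLL1 and VDAC2 with scaling by library size alone (0.057, 0.18 and 0.13), where AIFM1, BIRC7 and FBXW7 passed as higher (0.14, 0.24 and 0.28 on the log2 scale). On both FPKM scales DYNLL1, VDAC2 and TP73 were not called and BIRC7 was called higher, DFFA was lost with edgeR on DESeq2 size factors (adjusted p = 0.053), and FBXW7 passed with no filter (0.047). DESeq2 did not call BNIP3L, CASP6, DFFA, DYNLL1, BTRC or TP73. The share of BMF in the BH3-only sum was lower in both groups when BAD, BIK and HRK were added, as given in the report.

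Same-numbered libraries did not deviate together more than others (correlations of -0.02 to 0.07 over 3 pairs, and -0.08 to 0.06 for other pairs). With so few pairs this cannot settle whether they shared a culture or a preparation, which the labels do not say. With the replicate number as a block 4638 genes were called higher and 4501 lower, against 4550 and 4404, and 3 and 4 members. Depth limits BAK1 and BCL2 most, at 64 to 106 counts in a library, and BMF in the MTA1 group, at 27 to 29.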
